A study of Mus musculus with 24 samples.

Results

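Plasma cells that had been raised by immunization were compared with resting follicular B cells of the same mouse strain. The comparison held 6 of the 24 arrays of a study of spleen B cell subsets: 3 arrays labelled as plasma cells of day 7 and 3 labelled as follicular B cells that had not been stimulated. The arrays were chosen by their labels alone. All mice were female C57BL/6, between 8 and 10 weeks of age, and those that gave plasma cells were of that age when they received the hapten-protein conjugate NP-CGG in alum. On day 7 after that injection, antibodies first removed spleen cells carrying IgD or IgM, T cells (CD3, CD5, CD90), NK cells (DX5, NK1.1), granulocytes (Gr1), macrophages (F4/80) and red cells (TER119). Plasma cells were then sorted as hapten-binding B220+ IgG1low CD138+ Igλ+ cells. For follicular B cells, antibodies to CD43, CD95, CD138 and CD11b were used along with those to CD3, CD5, CD90, Gr-1, F4/80 and TER119, and the cells were sorted as B220+ AA4.1- CD21int CD23+. No CD11b antibody was named for the plasma cell samples, and no IgD or IgM antibody for the follicular ones. Germinal center and memory B cells of day 7, hapten-binding and IgG1+, came from the same kind of immunized mice with the same depletion, and they serve below as further comparisons. Nothing in the sample descriptions tells whether replicates were separate mice or one pool, so the p-values measure only the spread between these samples, which may be technical.

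Follicular B cells recirculate through the spleen and lymph nodes, carry the antigen receptor on their surface and present antigen on MHC class II. After contact with antigen and T cell help, some of their descendants become plasma cells, which stop displaying most of that equipment and secrete antibody instead. The change is driven by a small set of transcription factors. Blimp-1 (Prdm1) silences B cell genes, XBP1 builds the endoplasmic reticulum (ER) for secretion, and IRF4 is needed for both steps, while PAX5, BACH2 and BCL6 hold the B cell state.

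Total RNA was amplified, labelled with biotin and hybridised to Affymetrix whole-genome mouse arrays, and the deposited values were GCRMA log2 signals between a floor of 2.15 and 16.43. One probe set stood for each gene. A gene counted as called where limma gave a Benjamini-Hochberg adjusted p under 0.05 and the log2 change was at least 1, and every change below is plasma minus follicular with its standard error (SE) from a fit over all 24 arrays, unless another comparison is named. A gene was taken as at background in a group where each of its 3 arrays lay at or below its own array median, which was 2.49 to 2.67 in plasma cells and 2.41 to 2.56 in follicular B cells. Changes against such a group are given as a bound computed from the mean of its array medians and the mean level of the other group. The Y-linked probe set for Sry read 4.16 on each of the 3 plasma cell arrays and 3.73 to 4.16 on the follicular ones, although the mice were female, so a level of that size need not mean expression. Pearson's r between arrays over all tested genes, with 1 probe set each, was 0.972 to 0.995 within plasma cells. It was 0.977 to 0.996 within follicular B cells and 0.798 to 0.817 between them. These are sorted populations measured in bulk, in which fewer cells of a type and less RNA per cell cannot be told apart.

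Of 11208 genes tested, 2275 rose in plasma cells (20.3%) and 2513 fell (22.4%), or 42.7% in either direction. The remaining 6420 were not called, and 7200 genes had an unadjusted p under 0.05. The median change over all tested genes was -0.05, and for 67.9% of them the 3 arrays of one group all lay above the 3 of the other. By at least 5 on the log2 scale, 367 genes rose and 241 fell. Follicular B cells were at background for 373 of the genes that rose, and plasma cells for 145 of those that fell. Because both directions were this common, each gene list below is read against 20.3% and 22.4%.

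The markers of both labels were present. Plasma cells had higher levels of Prdm1, Xbp1, Jchain, Tnfrsf17, Slamf7, Mzb1, Derl3 and Ell2, and Sdc1, which encodes the sorted antigen CD138, read 14.86, 14.79 and 14.90, against 9.58, 10.33 and 10.22 in follicular B cells. Irf4 was high on all 6 arrays by the probe set used. In follicular B cells Ms4a1, Cd22, Cxcr5, Fcer2a and Cr2 read over 12 on each array, and Pax5 and Ccr7 were also above background. Fcer2a (CD23), Cr2 (CD21), Sdc1 (CD138), Cd93 (AA4.1), Fas (CD95), Spn (CD43), Cd5, Cd3e, Thy1 (CD90), Adgre1 (F4/80), Itgam (CD11b), Ptprc (B220) and Ighm took part in the sorts or depletions, so their differences are not findings. For Cd93 the difference was 5.01 ± 0.62, where the follicular gate required AA4.1- cells and the plasma cell gate did not use AA4.1.

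Markers of other cell types moved with the groups, and their part in the results below was not tested. Of 15 myeloid markers tested, 13 rose and 1 fell, with a median change of 4.60. Their summed signal was 15.45 to 15.84 in plasma cells and 8.12 to 9.36 in follicular B cells on the log2 scale. S100a9 read 14.23, 14.31 and 14.07 in plasma cells, against 2.15 on each follicular array, and Lyz2 (lysozyme) read 13.34, 12.84 and 13.30, against 3.16, 3.21 and 4.06. On the plasma cell arrays 14, 14 and 15 of 19 myeloid markers lay above the array median, against 6, 7 and 7 on the follicular ones. Some did not go this way: Itgam and Siglech stayed within 0.05 of the floor on all 6 arrays. Adgre1, a depletion target in both sorts, was at background in plasma cells. T cell markers went both ways, 4 up and 1 down of 8 tested. Their summed signal, most of it from Cd2, was 9.21 to 10.06 in plasma cells and 13.36 to 13.54 in follicular B cells. Cd3e, Cd3d and Cd3g read 2.15 on all 6 arrays. Of NK markers 2 of 4 rose, with summed signals of 9.89 to 10.50 in plasma cells and 9.58 to 9.74 in follicular B cells, and Ncr1 and Klrk1 were at the floor. The erythroid and platelet sum was 6.41 to 8.58 in plasma cells and 5.16 in follicular B cells, and in plasma cells Ermap was its highest member (5.74, 8.45 and 6.14), with Hba-a1 and Alas2 at the floor on all 6 arrays. Stroma and vessel sums overlapped, at 10.12 to 10.96 in plasma cells and 10.69 to 10.97 in follicular B cells. Plasma replicate 2 stood apart in several of these genes: Mpo read 7.81, 13.83 and 10.76 in the 3 plasma cell samples, and Nkg7 read 2.15, 8.95 and 2.23. The counts below were therefore also taken without plasma replicate 2 and follicular replicate 1, the arrays with the fewest probe sets at the floor in their groups, and the counts over all genes then came to 2057 rises and 2573 falls.

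**Figure D1:**
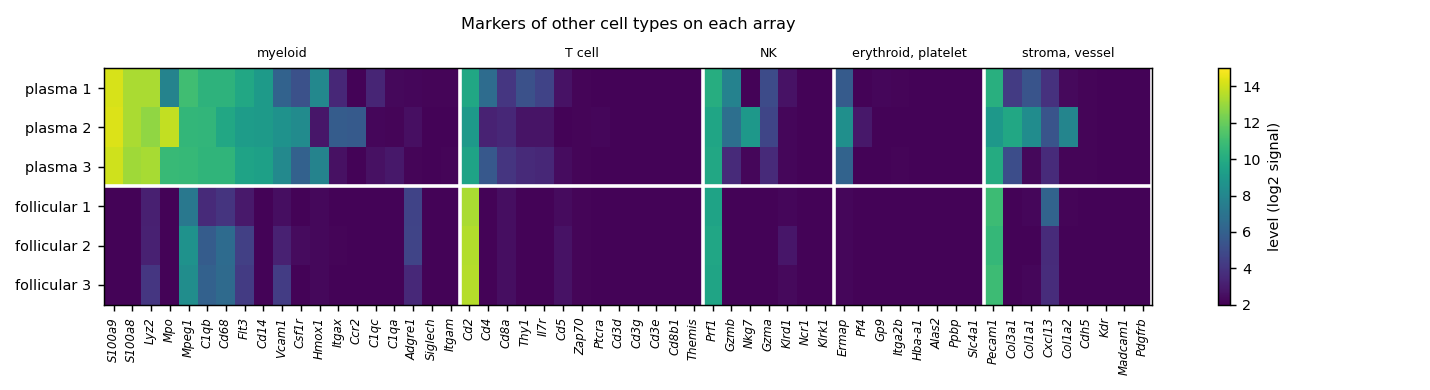
Levels (log2 signal, colour scale) of markers of myeloid, T, NK, erythroid or platelet, and stromal or vessel cells on the 3 plasma cell arrays (upper rows) and the 3 follicular B cell arrays (lower rows). S100a9, S100a8 and Lyz2 read over 12 on every plasma cell array and under 5 on every follicular one, while Itgam, Siglech, Cd3e and Hba-a1 sat at or near the floor on all 6.

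Leaving out placeholder names and immunoglobulin genes, among which Igha rose by 11.28, the 15 largest rises ranged from 10.26 to 12.53, and the largest adjusted p among them was 0.00132. At the top stood Slpi, a secreted inhibitor of leukocyte proteases, with 15.63, 15.77 and 15.64 in plasma cells, against 3.26, 3.26 and 2.93 in follicular B cells (12.53 ± 0.20). Tent5c, a poly(A) polymerase that lengthens the tails of immunoglobulin and other ER-targeted mRNAs, followed S100a9 in the ranking. It read 14.40, 14.24 and 14.27 in plasma cells and 2.30, 2.45 and 2.20 in follicular B cells (11.99 ± 0.22). The other rises of this size were Pon3, a paraoxonase (11.42 ± 0.46), S100a8, Cd28, Reln, which encodes the secreted protein reelin, Rhobtb1, Oosp1, Thbd, the thrombomodulin gene (10.50 ± 0.46), Gpm6a, Mt2, a metallothionein (10.48), Serpinf1 (10.37 ± 0.38), Bhlha15 and Ctla4. For Reln, Gpm6a, S100a8 and S100a9 follicular B cells were at background, and the bounds were 10.57, 10.20, 10.83 and 11.74. The SE of S100a9 was 2.80 and that of S100a8 was 2.67, since the fit pooled the spread of all 8 groups and both genes varied widely in others: S100a9 ranged from 2.15 to 13.56 among the 3 memory samples of day 7.

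The 15 largest falls ranged from -9.83 to -11.51, with a largest adjusted p of 8.5e-09. The deepest was that of Tlr1, a receptor for bacterial lipopeptides, with 2.65, 2.66 and 2.46 in plasma cells (-11.51 ± 0.13). Srpk3, a kinase of splicing factors, came next (-11.35 ± 0.36). B cell surface and signalling genes made up most of the rest, namely Cd72, Cd22, Fcer2a, Cr2, Fcmr, Cxcr5, Ccr6, Slamf1 and Ms4a4c. The others were Ciita, Hhex, Ephx1, an epoxide hydrolase, and B3gnt5, a glycolipid glycosyltransferase that read 2.30, 5.66 and 2.38 in plasma cells.

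Among 16 regulators of the plasma cell state, 8 rose and 1 fell, with a median change of 0.85. Prdm1 read 11.41, 11.31 and 11.63 in plasma cells, against 3.66, 3.32 and 3.30 in follicular B cells (8.02 ± 0.55, adjusted p = 3.3e-10). Bhlha15 encodes MIST1, a factor that expands the secretory apparatus. It read 12.80, 12.71 and 12.89 in plasma cells and sat at the floor on all follicular arrays, at least 1293-fold higher. Creb3l2, a transcription factor that is released from the ER membrane, read 12.81, 12.20 and 12.67, against 2.74, 3.11 and 3.88 (9.32 ± 0.52). None of these 3 genes had overlapping groups.

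Xbp1 read 14.92, 15.06 and 14.97 in plasma cells, against 11.16, 11.33 and 11.32 in follicular B cells, which were thus already well above background (3.71 ± 0.20). Each of its 4 probe sets gave a change of 3.71 or more. Ern1, which encodes IRE1α, the ER sensor that splices Xbp1 mRNA, rose by 5.87 ± 0.57. Ell2, an elongation factor that favours the secretory form of immunoglobulin heavy chain mRNA, rose by 2.92 ± 0.17. Atf6, another ER sensor, rose by 2.32 ± 0.20, and Zbtb20, which promotes plasma cell survival, by 1.30 ± 0.21. The direction of Irf4 was the same in its 2 probe sets but the size was not. By the brighter one it read 14.22, 14.34 and 14.22 in plasma cells, against 13.96, 13.83 and 13.83 (0.39 ± 0.14, not called), and by the other it read 9.03, 9.19 and 8.79, against 3.71, 4.86 and 4.24. Pou2af1, a coactivator of immunoglobulin transcription, changed by 0.13 ± 0.12, and Ikzf3 and Ikzf1, the Aiolos and Ikaros genes, by -0.93 ± 0.13 and -0.68 ± 0.12, all short of a call. Zfp36l1, an RNA-binding protein, changed by -0.60 ± 0.10. As means of their probe sets Ikzf3 and Zfp36l1 were called lower, at -2.11 and -1.01, and Ikzf3 also at -1.02 to -1.03 with quantile normalization, with arrays shifted to the same median and without plasma replicate 1. The repressor gene Zbtb32 was at background in both groups, and Meis2 was high on 1 array of each group. By the probe sets used, Hivep2 was the 1 regulator that fell, to 5.59, 5.59 and 5.97 in plasma cells, against 10.87, 10.92 and 10.99.

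Of 25 regulators of the B cell state, 17 fell and none rose, with a median of -2.68. Ciita, the master activator of MHC class II genes, lay between 2.25 and 2.38 in plasma cells, against 12.73, 12.99 and 12.78 in follicular B cells, and was thus at least 1243-fold lower. Its 3 probe sets gave changes of -7.70 to -10.52. Spib, an ETS factor of mature B cells, read 7.05, 6.53 and 7.72, against 14.15, 14.33 and 14.34 (-7.17 ± 0.19). The homeobox gene Hhex (-10.28 ± 0.61) and Id3, an inhibitor of E proteins (-8.08 ± 0.71), also fell.

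Each of the classical repressors of plasma cell fate fell. Bach2 read 7.58, 8.27 and 8.13 in plasma cells, against 12.54, 13.56 and 13.47 (-5.20 ± 0.36), and its other probe sets fell further, to -8.24. Bcl6 read 8.73, 8.79 and 8.64, against 13.75, 13.54 and 13.56 (-4.90 ± 0.18). Pax5 was at the floor in plasma cells and read 5.95, 6.62 and 6.47 in follicular B cells, at least 13.9-fold lower by the probe set used. Irf8 fell by 4.93, Bcl11a by 5.59, Ebf1 by 3.54 and Pou2f2, the OCT2 gene, by 2.86. Klf2, which holds lymphocytes in circulation, read 9.24, 11.18 and 9.31 in plasma cells (-3.03 ± 0.57). Relb, Ets1, Foxo1 and Foxp1 fell by 2.68, 2.42, 2.05 and 1.47. Klf3 fell by 2.01 with all arrays and was not called without plasma replicate 2 (limma adjusted p = 0.0936). Spi1, Tcf3, Bcl10, Mef2c, Fli1, Lef1, Ikzf2 and Bach1 were not called, with changes of -0.48 to 0.73, though Bach1 was called higher at 1.42 as a mean of its probe sets. Mef2c, a factor of the same lineage, read 13.82, 13.47 and 13.76 in plasma cells, against 13.91, 13.91 and 13.86.

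**Figure D2:**
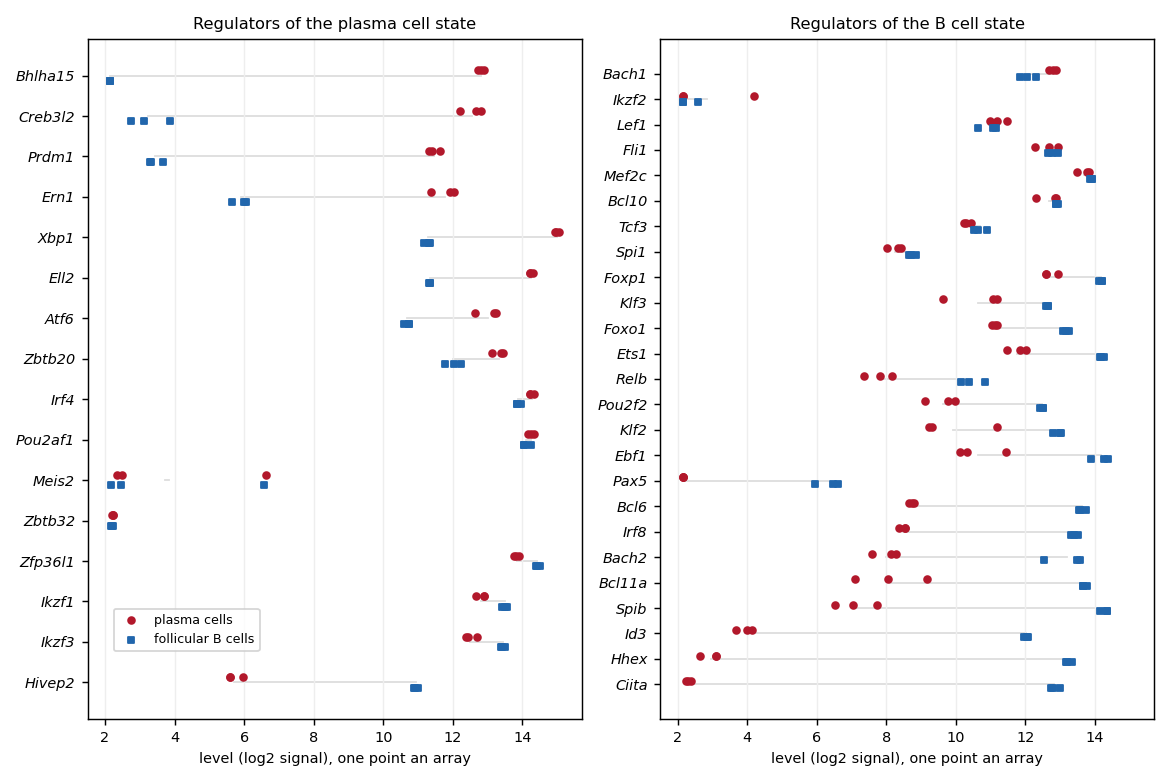
Levels (log2 signal, horizontal axis) of 16 regulators of the plasma cell state (left) and 25 of the B cell state (right), 1 point an array, with plasma cells as red circles and follicular B cells as blue squares; grey lines join the group means. Bhlha15, Creb3l2 and Prdm1 lie over 11 in plasma cells and under 4 in follicular B cells, and Ciita and Hhex show the opposite pattern.

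Surface and effector genes known from plasma cells formed a list of 33 tested genes, of which 27 rose and 1 fell (median 4.81). The list was chosen with earlier results of these data known. It holds Slpi, Tent5c, Cd28 and Ctla4 of the largest rises, so its share is a description only. Tnfrsf17 encodes BCMA, a survival receptor of plasma cells. It read 12.39, 11.51 and 12.62 in plasma cells and 2.15 on each follicular array, at least 838-fold higher. Cd28, better known as a T cell costimulator and also present on plasma cells, read 13.52, 12.81 and 13.31, against 2.15 on each follicular array, at least 1722-fold higher. Ctla4, the inhibitory partner of Cd28 for the same ligands, read 13.22, 12.56 and 13.30, against 3.58, 2.48 and 2.24. Cd3e, Cd3d and Cd3g were at the floor in both groups, CD3 being a depletion target in both sorts. Of 8 T cell markers tested 4 rose and 1 fell. Whether T cells added to the Cd28 and Ctla4 signal was not tested.

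Jchain, which joins IgM and IgA into polymers, read 15.72, 15.76 and 15.64 in plasma cells, against 7.73, 5.48 and 8.75 (8.39 ± 0.64). Mzb1, an ER partner of immunoglobulin chains, rose by 2.15 ± 0.11. The adhesion molecules Epcam and Cd9 rose by 8.14 ± 0.43 and 6.67 ± 0.64, Cd44 by 3.01 ± 0.15, and Slamf7, a target of myeloma antibodies, by 4.54 ± 0.27. The chemokine receptor Cxcr3, which guides cells to inflamed tissue, read 10.83, 10.39 and 10.95 in plasma cells, against 2.40, 2.78 and 2.79. Another homing receptor, Cxcr4, which retains plasma cells in bone marrow, changed by 0.66 ± 0.14, below the size set for a call. Ccr9 changed by -1.27 ± 1.03 and did not pass, and Ccr10 was too dim to be tested. Itgb7, an integrin subunit of gut homing, was the single fall, by 1.41, and was not called without plasma replicate 2 (-1.15, limma adjusted p = 0.0607).

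Il10 read 8.31, 8.01 and 8.51 in plasma cells, at least 56.2-fold over follicular B cells, which sat at the floor. Il6st, the signalling chain of the IL-6 receptor, rose by 4.80 ± 0.38, and Igf1r by 5.08 ± 0.29. Cd274, which encodes PD-L1, rose by 1.58 ± 0.31. The receptor Tnfrsf13b (TACI) changed by -0.33 ± 0.15 and was not called. Its relative Tnfrsf13c (BAFF receptor) fell by 1.05, and by 0.98, short of a call, without follicular replicate 3. Of these receptors for the BAFF and APRIL ligands, then, BCMA was high in plasma cells and at the floor in follicular B cells, while the others differed little or by about the minimum size.

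The surface of the resting B cell showed the opposite picture: of 31 genes tested 28 fell and none rose (median -4.42). This list holds Cd72, Cd22, Fcer2a, Cr2, Fcmr, Cxcr5 and Ccr6 of the largest falls. Fcer2a and Cr2 were also sort markers, so its share is a description only. Cd72 and Cd22, inhibitory receptors of the B cell, read 3.22, 3.22 and 3.42 and 3.81, 3.76 and 3.72 in plasma cells. In follicular B cells they read 14.23, 14.13 and 14.14 and 14.50, 14.53 and 14.47. Cxcr5, the receptor that leads B cells into follicles, was at background in plasma cells and read 12.83, 12.94 and 12.67 in follicular B cells, at least 1226-fold lower. Ccr6 fell by 9.85, Ltb, which encodes lymphotoxin β, by 9.80, and Cnr2, a cannabinoid receptor, to background. Cd40, the receptor of T cell help, read 8.11, 7.89 and 8.48, against 13.50, 13.64 and 13.54 (-5.40 ± 0.14). S1pr1, the receptor for egress into blood, fell by 5.34, Il4ra by 5.16 and Gpr183, which positions B cells at the follicle edge, by 2.65.

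Not every naive surface gene fell. Cd74, the invariant chain, read 15.29, 15.21 and 15.33 in plasma cells, against 15.69, 15.59 and 15.66 (-0.37 ± 0.08). Ccr7 changed by -1.27 ± 0.72 and was called only in a fit of these 2 groups alone, and Cd69, with 13.51, 13.94 and 13.56 in plasma cells and 12.64, 12.57 and 12.81 in follicular B cells, differed by just under the minimum size and was called at 1.05 to 1.08 when plasma replicate 1, plasma replicate 3 or follicular replicate 3 was left out. Tlr9 was at the floor on all 6 arrays.

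Signalling from the antigen receptor went down in part: 23 of 33 genes fell, none rose, and the median was -1.53. Blk, a SRC family kinase, read 7.95, 7.56 and 8.11 in plasma cells, against 13.44, 13.38 and 13.34 (-5.51 ± 0.14). Ptpn6 (SHP-1) fell by 4.71, Pik3ap1 (BCAP) by 5.40, Bank1 by 3.89, Ms4a1 (CD20) by 3.85 and Prkcb by 3.44. The receptor's own signalling chains parted: Cd79a read 13.17, 12.81 and 13.13, against 15.07, 14.88 and 14.93 (-1.92 ± 0.11), while Cd79b read 14.94, 14.75 and 14.90, against 15.31, 15.25 and 15.21 (-0.39 ± 0.09, not called). The kinases Syk and Btk fell by 1.17 and 1.33, and the adaptor Blnk changed by 0.44 ± 0.08, Plcg2 by -0.42 ± 0.14 and Vav1 by -0.18 ± 0.16, without a call. Vav1 was called lower by its other probe sets, at -1.74 as a mean of all and at -3.31 without those that may share targets. Without the pair of doubted arrays 21 fell.

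On MHC class II, 11 of 16 genes fell and none rose (median -1.41). The members differed widely in size. Ciita fell to background, and H2-Oa and H2-Ob, which modulate peptide loading in B cells, fell by 7.66 and 4.85. The presenting chains themselves fell by less and stayed bright: H2-Aa read 13.63, 13.49 and 13.54 in plasma cells, against 15.10, 14.86 and 14.98 (-1.43 ± 0.10), and H2-Ab1 and H2-Eb1 fell by 1.40 and 1.35. H2-DMa and H2-DMb2, the peptide exchangers, fell by 2.24 and 2.16. Ifi30, Ctss, Rfxank and Rfxap were not called. For class I, 2 of 11 genes rose, both of them ER proteins, namely Erap1, which trims peptides (2.66 ± 0.18), and Pdia3 (1.74 ± 0.15). The peptide transporter gene Tap1 changed by -0.41 ± 0.13 and B2m by 0.16 ± 0.10.

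**Figure D3:**
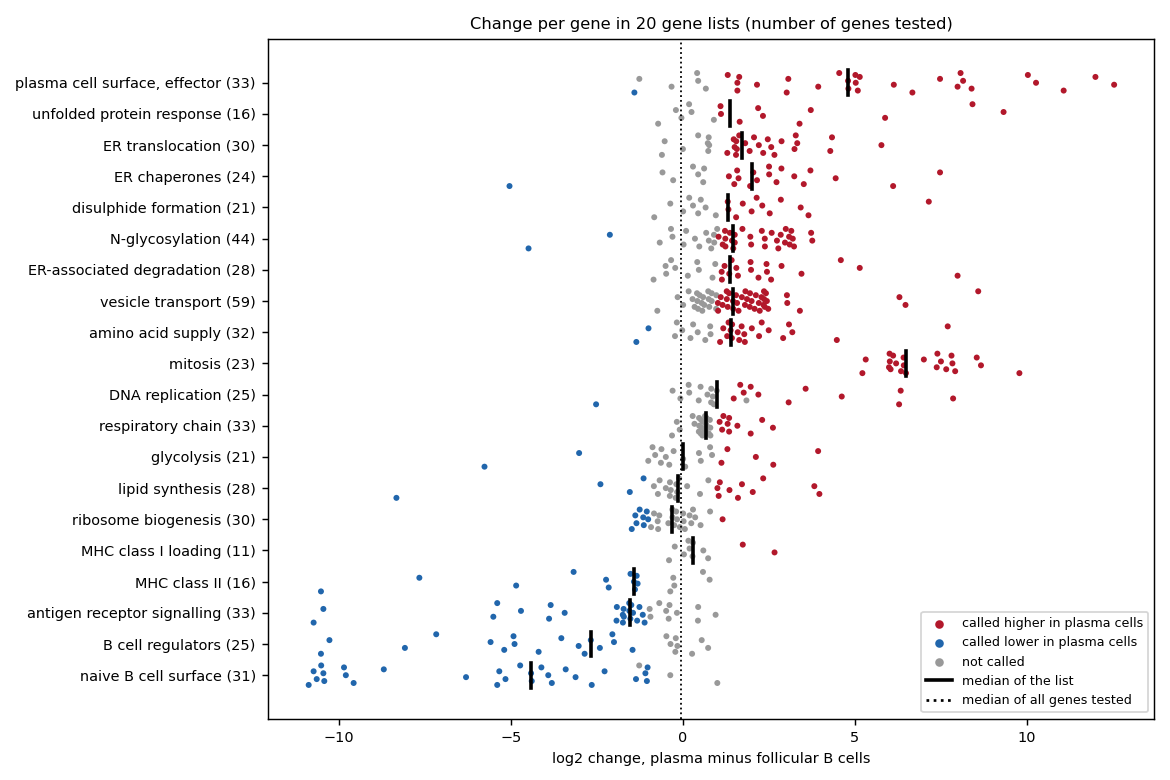
Log2 change, plasma minus follicular, of each tested gene in 20 lists (number tested in brackets), with genes called higher in red, called lower in blue and not called in grey; the bar marks a list's median and the dotted line the median of all 11208 tested genes, -0.05. Mitosis and plasma cell surface genes lie farthest to the right and naive B cell surface genes farthest to the left, with the ER and transport lists between 1 and 2.

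The unfolded protein response keeps ER capacity in step with load through the sensors IRE1α, PERK and ATF6. Of 16 sensors and effectors tested, 10 rose and none fell, with a median of 1.38, and 8 rose without the pair of doubted arrays. Chac1, a glutathione-degrading enzyme induced in the PERK branch, read 10.45, 11.58 and 9.81 in plasma cells and was at background in follicular B cells, at least 284-fold higher. Atf6b and Atf5 rose by 1.65 ± 0.24 and 3.39 ± 0.53. Eif2ak3, which encodes PERK itself, changed by 0.90 ± 0.21 and was not called, but was called at 1.65 as a mean of its probe sets. Atf4 (1.10), Ddit3 (1.09) and Ppp1r15a (2.18) were called with all arrays. Ddit3 came to 0.99 without follicular replicate 1, Atf4 to 0.73 as a mean of its probe sets, and Ppp1r15a read 11.99, 12.28 and 12.07 in plasma cells and 8.36, 10.52 and 10.91 in follicular B cells, and its change was 1.31 and not called without the pair of doubted arrays. Trib3, a pseudokinase induced by strong ER stress, was at background in both groups, and Nfe2l2, Mbtps1 and Mbtps2 were not called. Creb3 changed by 0.25 ± 0.18 without a call, and was called at 1.97 without probe sets that may share targets. Creb3l1 was too dim to be tested.

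Several of the genes next described hold known response elements of this pathway in the RefSeq promoter windows (GRCm38.p6), which run from 250 bases before to 50 after a gene's start. ERSE was searched as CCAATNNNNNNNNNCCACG, ERSE-II as ATTGG and CCACG separated by 1 base, and the UPRE core as TGACGTGG, each on both strands. The reverse of the UPRE core begins with the CCACG that ends the other motifs, so that matches may overlap. Of 9102 tested genes with a window, 0.143% held an ERSE, 0.0879% an ERSE-II and 1.05% a UPRE core. Among ER chaperones it was 6 of 20 for the ERSE (30.0%), and among vesicle transport genes 8 of 50 for the UPRE core (16%). None of 22 ER translocation genes, 15 unfolded protein response genes, 19 B cell regulators or 23 naive surface genes held any of the motifs. A match is a description of the letters and not a shown binding site. The stretches below are shown because they belong to genes whose levels carry this section, and each motif is in capitals. 
Hspa5, chr2:34771985-34772083, + strand, ERSE: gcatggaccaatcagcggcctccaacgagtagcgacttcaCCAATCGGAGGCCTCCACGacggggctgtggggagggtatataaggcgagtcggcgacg
Hsp90b1, chr10:86705493-86705591, - strand, ERSE: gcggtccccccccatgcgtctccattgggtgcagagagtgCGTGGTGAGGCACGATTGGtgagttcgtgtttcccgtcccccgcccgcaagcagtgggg
Pdia6, chr12:17266451-17266549, + strand, ERSE: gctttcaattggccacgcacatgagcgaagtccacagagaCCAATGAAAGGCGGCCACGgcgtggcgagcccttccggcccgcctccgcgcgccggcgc
Dnajc3, chr14:118937787-118937885, + strand, ERSE: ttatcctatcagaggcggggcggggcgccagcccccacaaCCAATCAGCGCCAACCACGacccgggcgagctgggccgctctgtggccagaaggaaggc
Creld2, chr15:88819480-88819578, + strand, ERSE: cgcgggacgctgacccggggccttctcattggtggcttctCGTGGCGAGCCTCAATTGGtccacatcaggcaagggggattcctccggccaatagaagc
Derl3, chr10:75893202-75893300, + strand, ERSE: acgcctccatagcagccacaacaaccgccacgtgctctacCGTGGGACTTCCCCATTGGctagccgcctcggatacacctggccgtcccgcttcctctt
Calr, chr8:84847035-84847133, - strand, ERSE: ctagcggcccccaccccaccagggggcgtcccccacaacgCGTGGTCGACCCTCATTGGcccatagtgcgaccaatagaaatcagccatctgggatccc
Herpud1, chr8:94386337-94386427, + strand, ERSE-II: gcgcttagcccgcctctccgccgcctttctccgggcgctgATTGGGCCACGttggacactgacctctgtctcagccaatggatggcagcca
Sec24d, chr3:123267430-123267495, + strand, UPRE core: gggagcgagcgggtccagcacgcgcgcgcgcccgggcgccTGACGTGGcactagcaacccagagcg
Kdelr3, chr15:79516338-79516407, + strand, UPRE core: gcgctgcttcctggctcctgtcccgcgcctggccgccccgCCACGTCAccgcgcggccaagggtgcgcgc

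Genes with the same element did not move by the same amount. In the list above the ERSE stood 47 bases before the start in Hspa5, whose level rose by 1.33 ± 0.10, and 138 bases before it in Derl3, which rose by 7.98 ± 0.34. Calr, with an ERSE 144 bases before its start, changed by 0.29 ± 0.10 and was not called, and neither was Ero1b, which holds one too. Canx, with an ERSE as well, changed by 0.59 ± 0.12 without a call by the probe set used, but was called at 1.90 as a mean of its probe sets and at 3.76 without probe sets that may share targets. One and the same ERSE on chromosome 15 lies between Creld2 and Alg12, which are read in opposite directions: Creld2 rose by 4.44 ± 0.18 and Alg12 changed by 0.02 ± 0.18. The UPRE core stood 19 bases before the start of Sec24d, which rose by 8.58 ± 0.43, and 77 bases before that of Arf1, which changed by 0.34 ± 0.09.

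**Figure D4:**
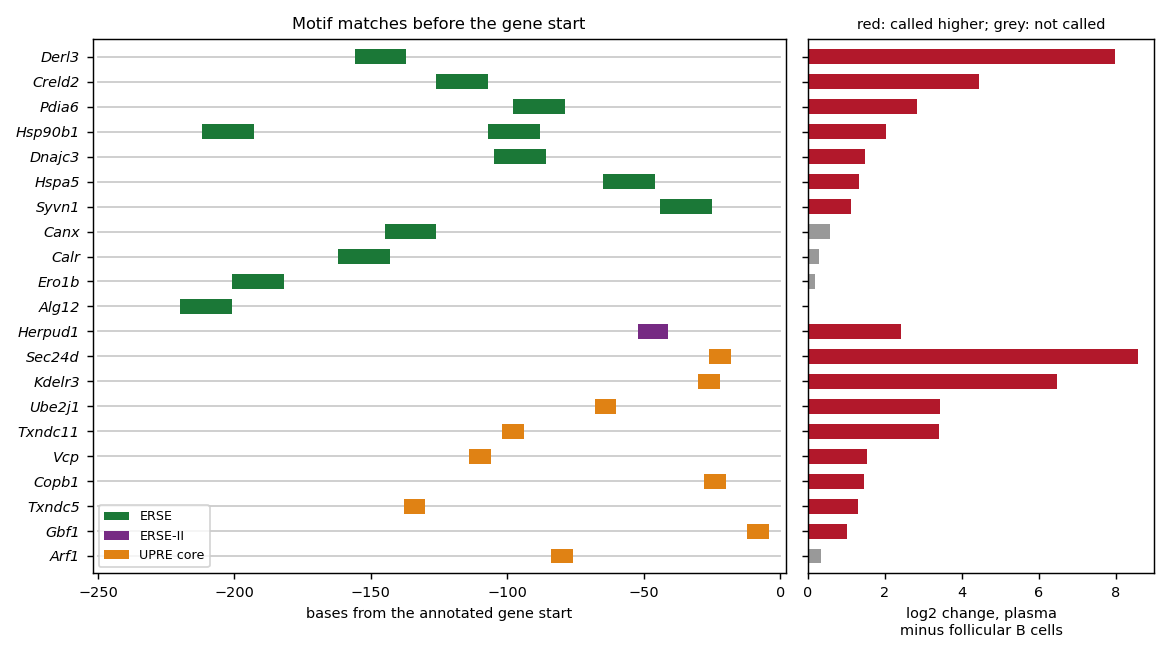
Motif matches that lie wholly before the annotated start in genes of the ER and transport lists (left, distance from the start in bases) and the log2 change of each gene, plasma minus follicular (right, red where called higher and grey where not called). Derl3 and Sec24d changed most, by 7.98 and 8.58, and Canx, Calr, Ero1b, Alg12 and Arf1 hold a match without a call by the probe set used (Canx is called at 1.90 as a mean of its probe sets).

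Of 30 genes for entry into the ER, 22 rose and none fell (median 1.72). The channel gene Sec61a1 read 14.64, 14.73 and 14.69 in plasma cells, against 12.04, 12.33 and 12.30 (2.46 ± 0.13), and its small subunit Sec61b rose by 2.06 ± 0.16. Subunits of the signal recognition particle rose, such as Srp68 (1.81 ± 0.15) and Srp19 (1.94 ± 0.12), but Srp14 read 14.15, 14.05 and 14.04 in plasma cells, against 14.22, 13.98 and 14.05, and was not called. Srprb, a subunit of the particle's receptor, rose by 4.28 ± 0.22. Signal peptidase subunits Spcs1, Spcs2 and Spcs3 rose by 1.63, 3.24 and 2.33, and the 4 translocon-associated subunits Ssr1 to Ssr4 by 1.55 to 3.32. Tram2, a partner of the channel, read 14.30, 14.07 and 14.25, against 9.67, 10.02 and 9.94.

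Chaperones followed, with 17 of 24 higher and 1 lower (median 2.00). Hspa5, which encodes the main ER chaperone BiP, was bright on all arrays, at 15.09, 15.12 and 15.07 in plasma cells, against 13.57, 13.94 and 13.77. Hsp90b1 (GRP94) rose by 2.04 ± 0.18. The co-chaperones of BiP rose by 1.49 (Dnajc3) to 3.70 (Sil1), with Dnajb11, Dnajc1 and Dnajb9 between them. Creld2 read 14.77, 14.76 and 14.87, against 9.89, 10.62 and 10.58, and Sdf2l1 and Manf rose by 6.11 ± 0.62 and 3.51 ± 0.14. The prolyl isomerase Fkbp11 read 13.02, 13.03 and 13.14, against 5.69, 5.84 and 5.25 (7.47 ± 0.26). Cnpy3, a chaperone of Toll-like receptors, was the 1 that fell, to 4.80, 6.09 and 5.09 in plasma cells, against 10.53, 10.12 and 10.46. Dnajc10 had probe sets that disagreed, at -0.29, 2.20 and 2.22, and gets no direction here.

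For disulphide bonds, 12 of 21 genes rose and none fell (median 1.32). Pdia4 read 13.72, 12.68 and 13.92 in plasma cells, against 5.47, 6.01 and 7.41 (7.14 ± 1.03), Pdia6 rose by 2.84 ± 0.13 and P4hb by 1.32 ± 0.11. Prdx4, an ER peroxiredoxin, rose by 3.65 ± 0.18, and Txndc11 by 3.42 ± 0.18. The oxidases behaved otherwise: Ero1b, the form of professional secretory cells, read 13.25, 13.17 and 13.23, against no more than 13.08 on the follicular arrays (0.18 ± 0.11), and Ero1a changed by 0.66 ± 0.12 by its brightest probe set and by 2.78 as a mean of probe sets.

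In N-glycosylation 29 of 44 genes rose and 2 fell (median 1.44). Oligosaccharyltransferase subunits rose, with Rpn1 at 1.96 ± 0.12, Rpn2 at 2.38 ± 0.15 and Ddost at 2.73 ± 0.18. Its catalytic subunits stayed below a call, with Stt3a at 0.82 ± 0.11 and Stt3b at -0.31 ± 0.12, though the mean of the Stt3a probe sets was 2.01. Among enzymes that make sugar donors, Gmppa (3.19 ± 0.17), Gmppb (3.72 ± 0.43), Gfpt1 (3.08 ± 0.27) and Pgm3 (3.15 ± 0.18) rose, while Pmm2 (-0.68 ± 0.27) and Gnpnat1 (-0.35 ± 0.16) were not called. Tusc3 and Dpm3 fell, by 2.13 and 4.49. Tusc3 is the alternative to Magt1 in the oligosaccharyltransferase, and Magt1 rose by 1.73 ± 0.17.

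Degradation of misfolded ER proteins had 18 of 28 genes higher and none lower (median 1.38). Derl3, a retrotranslocation factor, read 12.86, 12.77 and 13.04 in plasma cells, against 4.70, 4.88 and 5.15. The lectins Edem1, Edem2 and Edem3, which pick out misfolded glycoproteins, rose by 5.14, 4.59 and 2.44. Herpud1, Sel1l and Ube2j1 rose by 2.43, 1.60 and 3.44. The partner of Sel1l, the ubiquitin ligase Syvn1, rose by 1.13 ± 0.15, and by 0.98 without the pair of doubted arrays.

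Transport between ER and Golgi had 38 of 59 genes higher and none lower (median 1.45). The COPII coat that carries cargo forward rose in its Sec23, Sec13 and Sec31 parts, with Sec23b at 1.94 ± 0.12 and Sec13 at 1.86 ± 0.13, but its cargo-binding subunits diverged. Sec24d read 12.59, 12.65 and 12.72 in plasma cells, against 4.55, 3.88 and 3.79, and Sec24a rose by 2.28 ± 0.21, while Sec24c changed by 0.16 ± 0.13 and Sec24b by -0.75 ± 0.13, both short of a call. The KDEL receptors, which return escaped chaperones, rose by 2.12 (Kdelr1), 1.80 (Kdelr2) and 6.47 (Kdelr3). For Kdelr3 that was 9.09, 9.30 and 9.31, against 2.43, 3.30 and 2.57. Lman1 and Mcfd2, which form a cargo receptor together, rose by 3.40 ± 0.16 and 3.03 ± 0.21.

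Amino acid supply and charging had 21 of 32 genes higher and 2 lower (median 1.40). Asns, asparagine synthetase, read 10.72, 10.83 and 10.74 in plasma cells, against 3.81, 2.17 and 3.23 (7.69 ± 0.59). The serine enzymes Phgdh, Psat1 and Psph rose by 1.59, 1.78 and 2.29, and Mthfd2 of mitochondrial folate metabolism by 2.21 ± 0.20. Slc7a5 and Slc3a2, which form the large neutral amino acid transporter, rose by 1.80 and 1.32. Ribosome production did not move this way: of 30 genes 1 rose and 8 fell (median -0.31), among them Rrs1 (-1.35 ± 0.19), Rrp9 (-1.49 ± 0.29) and Utp20 (-1.26 ± 0.17). Npm1 and Ncl changed by -0.31 ± 0.11 and -0.26 ± 0.11, without a call. Without the pair of doubted arrays none rose and 10 fell.

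Energy genes were mixed. Of 33 respiratory chain genes 10 rose and none fell (median 0.67), and of 21 glycolysis genes 5 rose and 2 fell (median 0.003). Ndufa1 and Cycs rose by 2.61 ± 0.16 and 2.30 ± 0.23. The hexokinase gene Hk2 read 11.92, 11.85 and 11.97 in plasma cells, against 7.51, 8.10 and 8.35 (3.93 ± 0.20). The glucose transporters on the list did not rise, with Slc2a3 at -3.02 ± 0.21 and Slc2a1 at -0.89 ± 0.12. In lipid synthesis 10 of 28 genes rose and 4 fell (median -0.14). Fdps and Cyp51 of sterol synthesis rose by 3.96 ± 0.57 and 1.71 ± 0.24, Gpat3 fell by 8.33, and Scd1 fell by 2.40.

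Plasma cells of day 7 carried the transcripts of dividing cells. All 23 mitosis genes tested rose, by 5.21 to 9.78 (median 6.48), and all 23 did so without the pair of doubted arrays. Mki67 read 14.08, 14.54 and 14.11, against 8.47, 6.84 and 6.42. Cdk1 read 11.79, 12.49 and 12.06, against 3.50, 3.81 and 3.42, and Ube2c, a ubiquitin carrier of mitotic exit, rose by 9.78 ± 0.45. Plasma replicate 2 was the highest of the 3 plasma samples in 22 of these 23 genes, Kif11 being the exception.

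DNA replication genes shifted less, with 11 of 25 higher and 1 lower (median 0.98), or 8 higher without the pair of doubted arrays. Cdc6, Gins2 and Cdc45, which load or form the replicative helicase, rose by 7.85, 6.33 and 6.28. Of the helicase subunits themselves, Mcm4 was already bright in follicular B cells, and read 12.74, 13.47 and 12.59 in plasma cells, against 13.11, 12.88 and 13.04. Mcm2 changed by 0.82 without a call. It was called at 1.17 as a mean of its probe sets, at 1.52 without those that may share targets and at 1.05 without plasma replicate 3. Mcm5 was not called by the probe set used, but was called at 1.61 without probe sets that may share targets. Pold1, the catalytic subunit of polymerase δ, fell by 2.53.

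Genes that restrain the cycle were mixed. Of 18 tested 8 rose and 4 fell (median 0.63), and 6 rose and 4 fell of 16 without the pair of doubted arrays. Cdkn1a (p21) read 9.27, 8.70 and 8.99 in plasma cells, against 2.67, 2.43 and 2.65 (6.40 ± 0.73). Cdkn2c (p18), which plasma cell maturation needs, read 10.08, 9.50 and 10.27, against 6.74, 6.30 and 6.54 (3.42 ± 0.49). Cdkn2a read 4.08 to 6.71 in plasma cells and 2.15 on each follicular array, with a bound of 7.62-fold from the plasma cell mean. Its lowest plasma cell array lay under the 4.16 that Sry read there, so that level need not mean expression. Myc read 7.81, 8.49 and 8.43, against 10.14, 10.15 and 10.27 (-1.94 ± 0.63), and its antagonists Mxd1 and Mxd4 rose by 2.31 ± 0.27 and 1.46 ± 0.27. Cdkn1b (p27) changed by 0.03 ± 0.23.

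Among 12 genes of the BCL2 family 6 rose and 1 fell (median 0.90). The fall was that of Bcl2 itself, the survival factor of resting B cells, with 3.57, 3.57 and 3.03 in plasma cells, against 12.21, 12.32 and 12.04 (-8.80 ± 0.31), and its 5 probe sets gave -6.35 to -8.80. Mcl1, on which plasma cells depend through BCMA, was bright in both groups, at 14.20, 14.06 and 14.15, against 14.63, 14.54 and 14.50, and its 6 probe sets gave -0.43 to 1.04. Bcl2l1 (BCL-XL) rose by 2.49 ± 0.39. The killers Bcl2l11 (BIM) and Pmaip1 (NOXA) rose by 1.86 ± 0.20 and 2.83 ± 0.35.

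Of 17 germinal center genes 8 rose and 2 fell against follicular B cells (median 0.83), and several of those that rose are genes of dividing cells, such as Mki67, Hmmr and Exo1. S1pr2, which confines cells to the germinal center, read 6.82, 5.77 and 7.36 in plasma cells, against 3.12, 3.11 and 3.27. Gcsam was at background in both groups. Cd86, a costimulator for T cells, read 3.56, 3.10 and 3.10 in plasma cells, against 8.20, 9.12 and 9.05 (-5.54 ± 0.28).

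Immunoglobulin genes share sequence, and their probe sets may cross-hybridise. Igha read 14.32, 14.78 and 14.29 in plasma cells, against at most 3.29 on the follicular arrays (11.28 ± 1.38), although the cells were sorted with an IgG1 gate. Ighg3 rose by 4.47 ± 0.29 by the probe set used. Its other probe sets gave 9.30, and 0.46 and 0.01 where follicular B cells were at the floor. Ighm gets no direction: 5 of its 11 probe sets read 15.06 to 15.80 in plasma cells and 2.15 to 3.47 in follicular B cells, while 2 others read 13.53 to 14.32 in plasma cells and 13.70 to 14.34 in follicular B cells.

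Immediate early and stress genes had 11 of 25 higher and 3 lower (median 0.64). Fosb read 12.15, 12.82 and 12.28 in plasma cells, against 3.48, 4.01 and 4.88 (8.29 ± 1.12), Atf3 rose by 7.72 ± 0.72, Nr4a3 by 7.09 ± 0.26 and Jun by 3.10 ± 0.62. The heat shock gene Hspa1b read 12.37, 14.03 and 12.30, against 3.16, 5.51 and 4.68. Egr3 and Dusp2 fell, by 4.87 and 4.60. Nr4a1 and Nfkbia changed by -0.06 ± 0.36 and -0.15 ± 0.15 and were not called. Fos was called at 1.39 but not without follicular replicate 1, where it came to 1.09. The groups also differed in their depletion antibodies and in immunization, which cannot be told apart from the cell type here.

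The plasma cells were also compared with memory and with germinal center B cells of day 7. The same 3 plasma cell arrays enter each comparison, so the values are given side by side only. Against germinal center B cells 2027 genes rose (18.1%) and 2252 fell (20.1%), or 38.2% in either direction. Against memory B cells 2004 rose (17.9%) and 2096 fell (18.7%), or 36.6% together. Of the plasma cell surface list 29 rose and none fell against germinal center cells (median 3.22), and 24 rose and 1 fell against memory cells. Of ER chaperones 18 rose and 1 fell against germinal center cells, and of vesicle transport genes 39 rose and none fell. Naive surface genes divided against germinal center cells, with 7 higher and 20 lower, whereas 27 fell and none rose against memory cells.

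Against germinal center B cells none of the 23 mitosis genes rose and 9 fell (median -1.27), and 16 of 25 replication genes fell (median -1.42). Against memory B cells 18 mitosis genes rose and none fell (median 2.25). Mki67 averaged 14.24 in plasma cells, 14.80 in germinal center and 12.70 in memory cells of day 7, and 7.24 in follicular B cells.

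Over all 8 groups, single genes followed separate patterns, which are given as levels without a test. Bhlha15 averaged 12.80 in plasma cells and no more than 2.35 in any other group, and Cd28 averaged 13.21, against at most 2.21 elsewhere. For Tnfrsf17 it was 12.17 in plasma cells and 4.94 in memory cells of day 7, with all other groups at 2.15. Prdm1 had intermediate levels elsewhere, with 8.12 in marginal zone B cells, 6.60 in germinal center cells of day 40 and 6.09 in follicular B cells stimulated for 6 h with 10 µg/ml anti-IgM and 2 µg/ml anti-CD40. Slpi averaged 15.68 in plasma cells, 11.54 to 13.49 in the germinal center and memory groups, and 2.71 to 3.15 in the stimulated, marginal zone and resting follicular cells. Tent5c averaged 14.30 in plasma cells and 11.88 to 12.50 in the germinal center, memory and stimulated groups, next to 3.28 in marginal zone and 2.32 in unstimulated follicular B cells.

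Among genes that fell in plasma cells, Ciita averaged 2.31 there and 10.10 to 12.83 in the 7 other groups, and Cxcr5 averaged 2.30 there and 12.25 to 13.86 elsewhere. Spib averaged 7.10 in plasma cells and 13.67 to 14.28 elsewhere. Bcl2 was low in germinal center cells as well, at 3.39 in plasma cells, 5.40 in germinal center cells of day 7 and 2.94 in those of day 40, and 11.61 to 12.31 in memory, marginal zone and follicular B cells, with 6.98 after stimulation. The 3 arrays of plasma cells and of germinal center cells of day 40 overlapped for Bcl2. Hhex averaged 2.96 in plasma cells and 4.47 in germinal center cells of day 7, and over 11 in both memory groups.

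**Figure D5:**
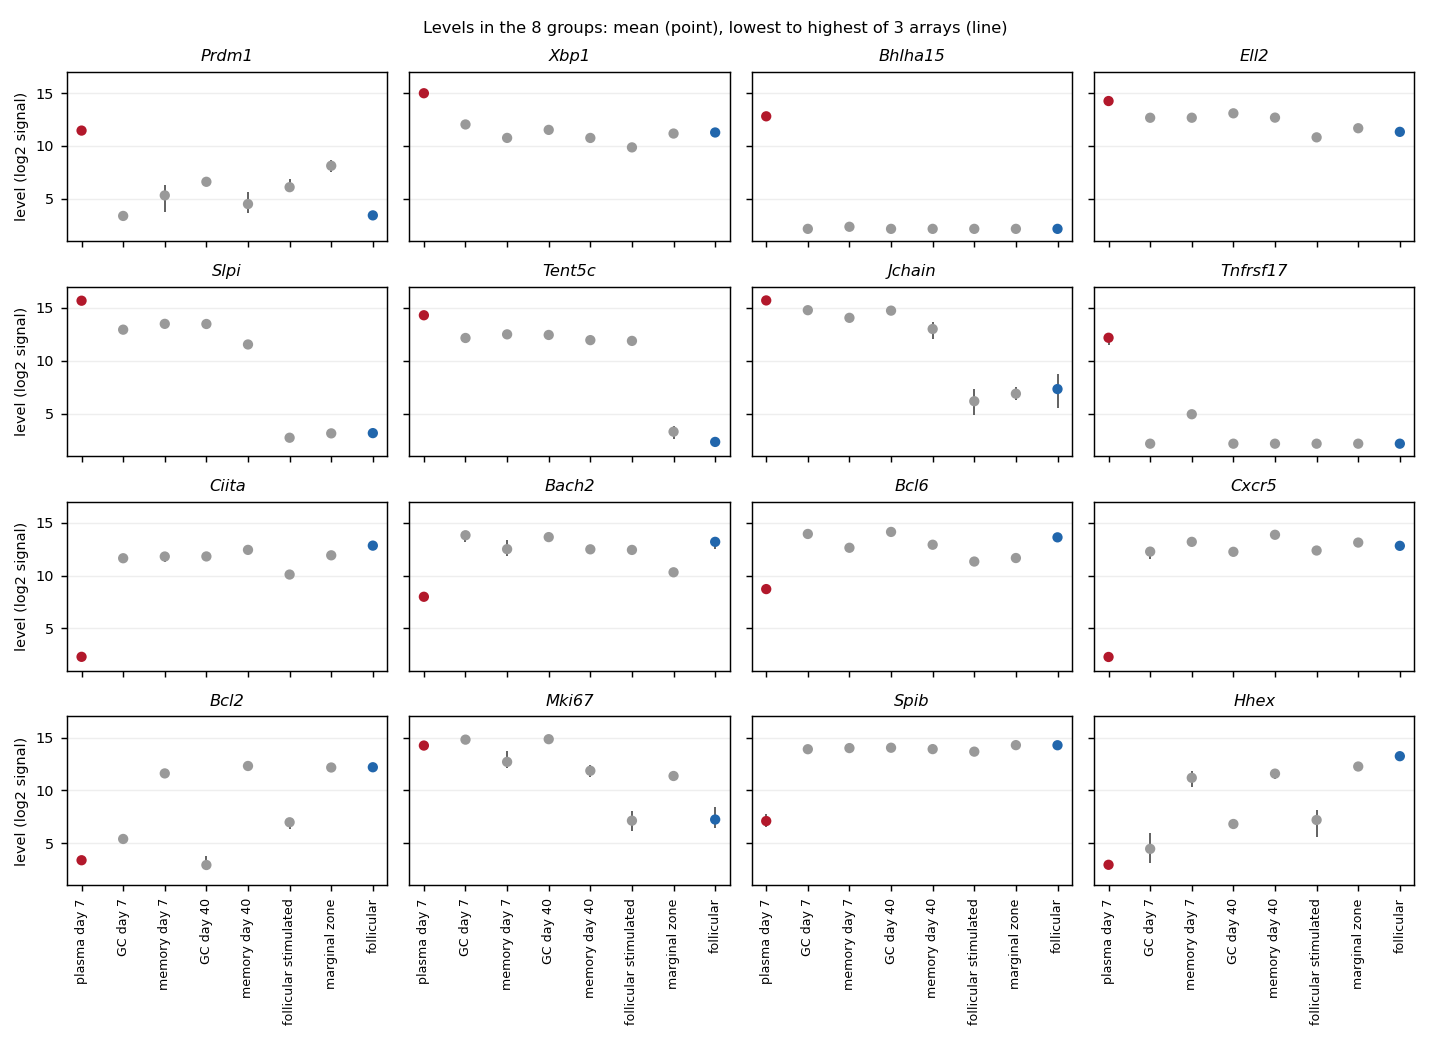
Mean level (log2 signal, points) and lowest to highest of 3 arrays (lines) of 16 genes in the 8 groups, with plasma cells in red on the left, follicular B cells in blue on the right and the other groups in grey. Bhlha15 and Tnfrsf17 stand high in plasma cells only, Slpi and Jchain are high in germinal center and memory cells too, and Ciita, Cxcr5 and Spib are low in plasma cells and high in the 7 other groups.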

How the data were processed

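RNA of 24 sorted spleen B cell samples, 3 in each of 8 groups, was measured on Affymetrix whole-genome mouse arrays. The deposited values are log2 signals made with GCRMA, per the submitters' processing notes, and were used as given; its version and settings are not given in the sources used here. Of 45101 probe sets 34945 had 1 gene symbol in the platform annotation, 932 had several, 9160 had none and 64 were controls. The probe set with the highest mean over the 24 arrays stood for a gene, and a gene was tested if it lay above the array median on at least 3 arrays, which left 11208 of 18193. limma 3.58.1 (R 4.3.3) was fitted to all 24 arrays by group (lmFit, eBayes), with Benjamini-Hochberg adjustment over all tested genes. The number of arrays limits the precision. The fit and the call rule were also run on simulated data for 11208 genes. Of genes changed by -4, -2, 2 and 4 they recovered 50 of 50, 46 of 50, 45 of 50 and 50 of 50. They also called 6 of the unchanged genes. The effect of the filter and of the choice of probe set was not tested in this way. In the simulated data 50 genes were given each size of change, whereas 42.7% of genes were called in the measured data. Recovery with that many changed genes was not tested. Recovery of genes at background in a group was not tested separately. The genes named are the 15 largest rises and falls among called genes whose groups did not overlap, without antigen receptor segments or placeholder symbols, the regulator, immunoglobulin, stress sensor and sort marker lists, and called or described members of the other lists. The groups, gene lists and rules were chosen with earlier results of these data known. Alternatives were the filter, the probe set rule, the scaling, the fit, the replicate block and leaving out each array. No pair of arrays was identical.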

Additional observations from a re-analysis of the deposited data

How the results depend on the processing

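The count of genes higher in plasma cells than in follicular B cells was 2275, and it was 2107 to 2288 when 1 array was left out and 1661 to 2329 under the other settings that kept a minimum change. The count of lower genes was 2513, with 2369 to 2606 and 1903 to 2696. Without a minimum change, 3231 genes were higher and 3681 lower than in follicular B cells, 3499 genes were lower than in germinal center B cells (2252 with it) and 3186 lower than in memory B cells (2096 with it). Leaving out plasma replicate 2 and follicular replicate 1 together, chosen after seeing the data, gave 2057 higher and 2573 lower. Arrays shifted to the same median gave 2124 and 2696, with a median change of -0.14. Deviations from the group mean gave an r of -0.36, -0.34 and 0.38 between samples of the same number. The largest r was 0.46, between plasma replicate 2 and follicular replicate 1. With 3 arrays a group these values depend on each other, so they cannot decide whether the numbers pair the samples. With the replicate number as a block 2277 genes were higher and 2520 lower, of which 2270 and 2508 were called without it. Of 683 named genes tested 434 were called, and 74 of these lost the call under at least 1 setting while keeping their sign. Under at least 1 setting that kept a minimum change, 61 uncalled ones gained a call in the direction of their change. Of all named genes 11 reversed, which means that a called gene changed sign or an uncalled one gained a call against its sign. Uncalled genes that changed sign without gaining a call are not counted. With the mean of all probe sets the changes were -1.22 for Agpat3, -0.10 for Cox8a, 1.38 for Dnajc10, 1.25 for Gnpnat1, 7.00 for Ighm, 0.20 for Nfatc2 and 0.076 for Nolc1. Leaving out probe sets that may share targets gave -1.29 for Agpat3, 2.20 for Dnajc10, 13.17 for Ighm, -0.96 for Ndufb8, -0.48 for Ost4, -1.15 for Tmx3 and 0.71 for Wdr43. These settings use other probe sets of the same gene. Values near the floor of 2.15 have no order.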
